A study of Mus musculus with 10 samples.

Results

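Smooth muscle contractile genes encode the actins, myosin chains and thin filament proteins with which smooth muscle and the peritubular myoid cells around the seminiferous tubules contract. The 10 genes followed here were the rows of the expression table named Acta2, Actg2, Tagln, Myh11, Cnn1, Tpm1, Tpm2, Myl9, Des and Smtn, 10 of 21969 genes measured, and were taken by name. They were measured by RNA-seq in DBA/2 mouse cells in 5 groups of 2 libraries each. The first group, week 0, was adult testis cells picked magnetically with an antibody to the surface protein CD9, before culture. The next 3 groups were cells after 1, 2 and 3 weeks in a medium with the growth factors FGF2 and GDNF and fetal bovine serum. The last, GS cells, was an already established culture of spermatogonial stem cells, which renew the germ line and give rise to sperm. All groups share the DBA/2 strain, and the labels give no genotype other than the strain and no animal age other than adult. The labels call every group spermatogonial stem cells, but CD9 is also found on other cells. The sources used here do not say how many animals or cultures stand behind the libraries, or whether feeder cells were present, so the p-values cover the spread from library to library alone, part of which may be technical.

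In smooth muscle, calcium bound to calmodulin activates a kinase that phosphorylates the regulatory light chain (Myl9), and the myosin heavy chain (Myh11) then pulls on filaments of alpha and gamma smooth muscle actin (Acta2, Actg2). Tropomyosins (Tpm1, Tpm2), calponin (Cnn1), transgelin (Tagln, also called SM22) and smoothelin (Smtn) bind those filaments, and desmin (Des) forms the intermediate filaments of muscle. The promoters of many of these genes are bound by serum response factor (SRF) with myocardin or its relatives. Acta2, Tagln, Tpm1, Tpm2 and Myl9 are also known in activated fibroblasts, and Myh11, Cnn1, Smtn and Actg2 are the more selective marks of mature smooth muscle.

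Depth, read from the steps of the values, was 10.34 to 21.06 M reads per library (M, 1e6), and replicates correlated at r = 0.987 to 0.994 across genes, which are not independent replicates. Values are FPKM, fragments scaled to transcript length and library size, as the authors normalized them. The labelled cell type was checked against marker genes. The FPKM of 18 markers of undifferentiated spermatogonia summed to 431 and 419 (week 0), 760 and 772 (week 1), 1322 and 1344 (week 2), 1393 and 1477 (week 3), and 1425 and 1499 (GS cells). At week 0 the 15 markers of spermatids summed to 30661 and 32530 FPKM, which was 3.56% and 3.83% of all FPKM of those libraries, and the 10 markers of Leydig cells to 1891 and 1641. The week 0 libraries thus held RNA of other testis cells beside that of the labelled type. The 2 libraries of week 3 stood apart from each other in 6 of the smooth muscle genes and in markers of fibroblasts. Results that rest on the week 3 libraries are given with and without each.

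Promoter sequence is shown for the only 2 members in which a search found a match to the CArG box, the site to which SRF binds, or to a version with 1 C or G among its 6 inner bases. RefSeq promoters (GRCm38.p6, 250 bases before to 50 bases after the start) were at hand for 7 members, Acta2, Cnn1, Tpm1, Tpm2, Myl9, Des and Smtn. The CArG box reads the same on both strands, so a match on 1 strand is a match on the other, and no matches overlapped. Capitals mark the matches in the Acta2 promoter (chr19:34255324-34255623, minus strand) and the Myl9 promoter (chr2:156775214-156775513, plus strand).
Acta2: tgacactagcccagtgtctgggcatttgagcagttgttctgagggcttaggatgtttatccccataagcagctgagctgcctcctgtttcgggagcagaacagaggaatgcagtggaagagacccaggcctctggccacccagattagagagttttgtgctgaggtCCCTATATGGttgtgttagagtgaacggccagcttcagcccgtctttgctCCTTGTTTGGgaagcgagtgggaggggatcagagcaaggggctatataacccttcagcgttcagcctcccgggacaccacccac
Myl9: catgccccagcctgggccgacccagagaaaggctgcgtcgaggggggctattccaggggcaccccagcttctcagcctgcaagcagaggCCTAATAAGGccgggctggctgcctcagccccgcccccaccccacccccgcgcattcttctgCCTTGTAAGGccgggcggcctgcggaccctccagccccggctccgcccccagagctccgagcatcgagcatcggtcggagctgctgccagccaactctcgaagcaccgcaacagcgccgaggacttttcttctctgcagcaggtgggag
Myl9 held a CArG box 161 to 152 bases before the start, and a version with 1 C or G inside 99 to 90 bases before it. Acta2 held 2 versions with 1 C or G inside, 84 to 75 and 34 to 25 bases before the start. The CArG box stood in 1 of 7 member promoters (14.3%), against 1.63% of all 32851 promoters of the same length. With 1 C or G allowed inside, the figures were 2 of 7 (28.6%), against 9.98% of all promoters. No match in the other 5 says only that these letters are not in this window.

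Both smooth muscle actins were high at week 0 and at a fraction of that level from week 2 on. Acta2, alpha smooth muscle actin (chromosome 19, 34241090 to 34255590, minus strand, GRCm38), stood at 352.5 and 417.5 FPKM (week 0), 228.4 and 226.7 (week 1), 18.42 and 18.92 (week 2), 6.49 and 18.24 (week 3), and 16.58 and 25.95 (GS cells). All libraries of weeks 0 and 1 lay above all libraries of the later groups, and weeks 0 and 1 did not overlap with each other. Actg2, gamma smooth muscle actin (chromosome 6, 83512905 to 83536265, minus strand), stood at 172.2 and 177.6 FPKM (week 0), 18.58 and 15.47 (week 1), 1.49 and 1.24 (week 2), 0.269 and 2.08 (week 3), and 0.0886 and 1.41 (GS cells). The Actg2 values of week 3 and GS cells rest on 4 and 44 reads and on 2 and 30 reads. Its replicates within each of these groups lay further apart than the means of the groups did. By limma on log2(FPKM + 1), with Benjamini-Hochberg adjustment over all genes tested, Actg2 was lower at week 1 than at week 0 (log2 fold change -3.29, SE 0.45, adjusted p = 0.000162) and lower at week 2 than at week 1 (-2.93, adjusted p = 0.000803). Acta2 was lower at week 2 than at week 1 (log2 fold change -3.54, SE 0.38, adjusted p = 0.000128), and its difference between week 1 and week 0 (-0.75, limma interval -1.64 to 0.14) was not called at an adjusted p of 0.103. That difference was called when either week 3 library was left out of the fit (adjusted p = 0.00765 and 0.00772) or when only the 2 groups were fitted (adjusted p = 0.00174).

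**Figure D1:**
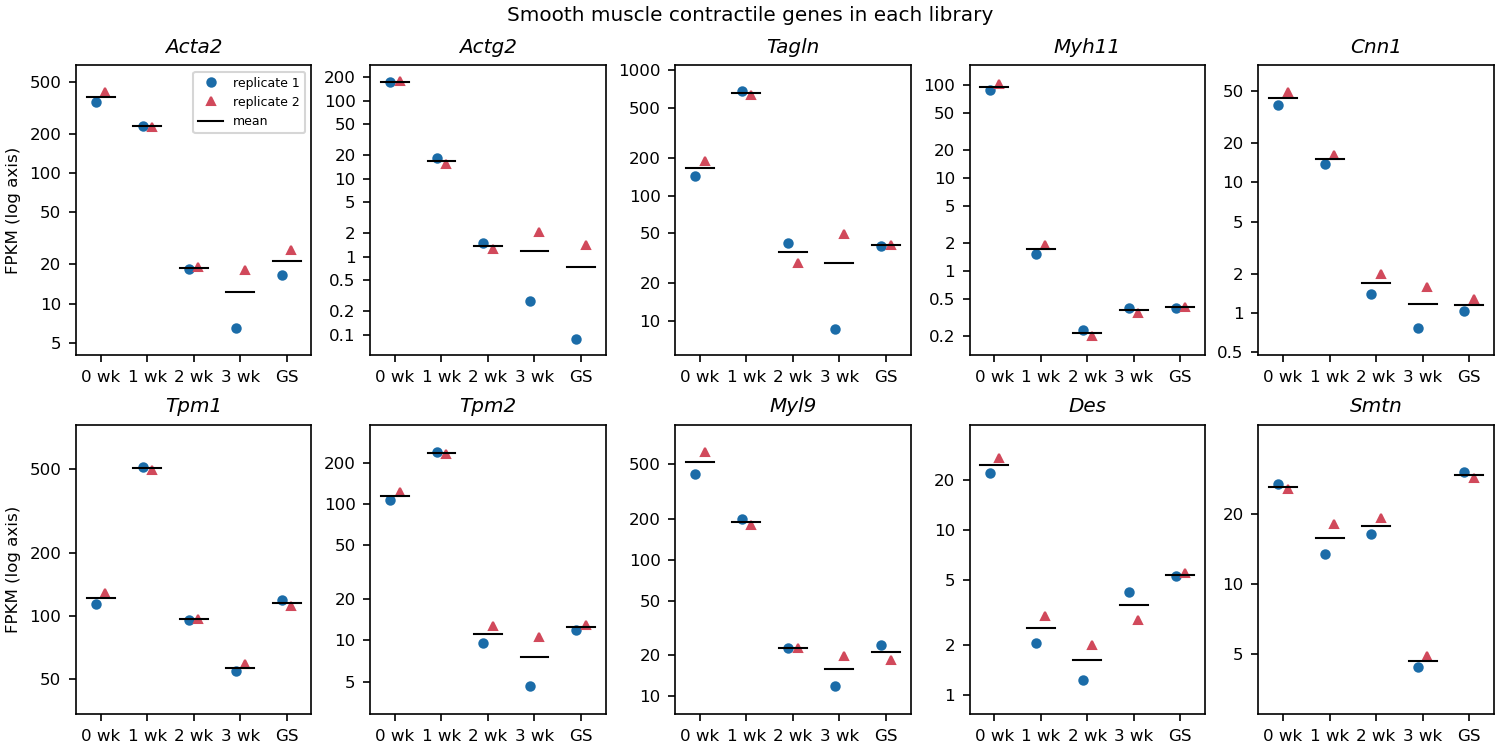
Level of each of the 10 smooth muscle contractile genes in FPKM on a log axis, with 1 point for each library and a bar at the mean of the 2 libraries, for weeks 0 to 3 of culture and GS cells. Myh11 is at 1.504 and 1.89 FPKM at week 1, against 87.59 and 101.7 at week 0, whereas Tagln, Tpm1 and Tpm2 are highest at week 1 and Smtn is at 30.15 and 28.57 FPKM in GS cells, against 26.82 and 25.42 at week 0.

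The myosin chains are the motor of contraction. Myh11, the smooth muscle myosin heavy chain (chromosome 16, 14194535 to 14291372, minus strand), stood at 87.59 and 101.7 FPKM (week 0), 1.504 and 1.89 (week 1), 0.227 and 0.198 (week 2), 0.396 and 0.351 (week 3), and 0.395 and 0.41 (GS cells). Myh11 was thus below 2 FPKM from week 1 on and below 1 FPKM from week 2 on, where each value rests on 17 to 53 reads. It was lower at week 1 than at week 0 by limma (log2 fold change -5.15, SE 0.13, adjusted p = 4.12e-09), the lowest value of any member in that comparison. A further difference between week 2 and week 1 (-1.15, adjusted p = 0.000136) was between values of 0.213 ± 0.021 FPKM at week 2 and 1.70 ± 0.27 at week 1 (SD, n = 2 libraries each). Myl9, the regulatory light chain (chromosome 2, 156775420 to 156781658, plus strand), stood at 426.1 and 612.2 FPKM (week 0), 199 and 180.1 (week 1), 22.4 and 22.44 (week 2), 11.78 and 19.67 (week 3), and 23.57 and 18.45 (GS cells). Its levels at weeks 0, 1 and 2 did not overlap. Both week 3 libraries lay below both of week 2, but week 2, week 3 and GS cells were not called apart with all libraries in the fit. Myl9 was lower at week 1 than at week 0 (limma log2 fold change -1.43, SE 0.24, adjusted p = 0.000659) and lower at week 2 than at week 1 (-3.02, adjusted p = 2.69e-05).

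The proteins of the thin filament fell into 2 patterns. Cnn1, calponin (chromosome 9, 22099216 to 22109630, plus strand), stood at 39.18 and 49.27 FPKM (week 0), 13.69 and 16.21 (week 1), 1.40 and 1.996 (week 2), 0.761 and 1.59 (week 3), and 1.02 and 1.27 (GS cells). It fell in the same order as the actins, with a limma log2 fold change of -1.50 at week 1 against week 0 (adjusted p = 0.000261) and of -2.57 at week 2 against week 1 (adjusted p = 3.69e-05). Tagln, transgelin (chromosome 9, 45929619 to 45936058, minus strand), instead stood at 143.5 and 189.9 FPKM (week 0), 684.1 and 639.6 (week 1), 42.11 and 29.04 (week 2), 8.60 and 49.87 (week 3), and 40.02 and 40.3 (GS cells). Tpm1, the tropomyosin alpha gene (chromosome 9, 67022590 to 67049406, minus strand), stood at 114.5 and 129.3 FPKM (week 0), 510.3 and 498 (week 1), 95.65 and 96.99 (week 2), 54.49 and 59.01 (week 3), and 119.3 and 111.9 (GS cells). Tpm2, the tropomyosin beta gene (chromosome 4, 43514711 to 43523765, minus strand), stood at 105.7 and 122.3 FPKM (week 0), 237.9 and 233.2 (week 1), 9.62 and 12.81 (week 2), 4.61 and 10.54 (week 3), and 11.98 and 12.89 (GS cells). In these 3 genes both libraries of week 1 lay above every library of every other group.

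Week 1 was higher than week 0 in Tagln (3.97-fold, limma log2 fold change 2.00, SE 0.63, adjusted p = 0.0174), in Tpm1 (4.14-fold, log2 fold change 2.04, SE 0.08, adjusted p = 6.02e-08) and in Tpm2 (2.07-fold, log2 fold change 1.04, SE 0.29, adjusted p = 0.00989). All 3 then fell at week 2 against week 1, with log2 fold changes of -4.20, -2.38 and -4.29 and limma adjusted p-values of 0.000702, 8.99e-07 and 1.13e-05. The call of Tagln at week 1 was lost when any 1 library of week 0 or week 1 was left out. The adjusted p was then 0.126 and 0.0737 without week 0 replicates 1 and 2, and 0.0663 and 0.0567 without week 1 replicates 1 and 2. With no filter on low values it was 0.058 and Tagln was not called either. That of Tpm2 was lost without week 0 replicate 1 (log2 fold change 0.94, adjusted p = 0.0879). Tagln overlaps the gene Pcsk7 and an antisense transcript, and reads of overlapping genes can be shared. Antisense transcripts also overlap Des and Smtn, and the sources used here do not say whether counting used the strand. Tpm1 has 21 annotated transcripts, some of them used outside muscle, so its level adds muscle and other isoforms.

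Des and Smtn parted from the other members at week 2 against week 1, where neither was called. Des, like Myh11, had its largest step between weeks 0 and 1. Des, desmin (chromosome 1, 75360329 to 75368579, plus strand), stood at 22.15 and 27.05 FPKM (week 0), 2.08 and 3.02 (week 1), 1.23 and 2.02 (week 2), 4.21 and 2.84 (week 3), and 5.29 and 5.45 (GS cells). Its libraries at week 0 lay above all others, and those of GS cells above those of weeks 1 to 3. Smtn, smoothelin (chromosome 11, 3517523 to 3540612, minus strand), stood at 26.82 and 25.42 FPKM (week 0), 13.48 and 18.13 (week 1), 16.32 and 19.23 (week 2), 4.42 and 4.90 (week 3), and 30.15 and 28.57 (GS cells). Week 3 was the lowest and GS cells the highest group for Smtn. Smtn has 10 annotated transcripts, which these values add together, so its level in GS cells does not tell which of them was present. Des was lower at week 1 than at week 0 (limma log2 fold change -2.86, SE 0.22, adjusted p = 4.37e-06), and Smtn was lower too (-0.70, SE 0.15, adjusted p = 0.00221). The call of Smtn was lost with quantile normalization (-0.32, limma adjusted p = 0.0722) and with a common upper quartile (-0.27, adjusted p = 0.113). Between week 2 and week 1 neither was called, with log2 fold changes of -0.44 for Des (limma adjusted p = 0.131) and 0.17 for Smtn (adjusted p = 0.369).

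Over the members, 3 were higher and 6 lower at week 1 than at week 0, with Acta2 not called. By comparison 36.3% of the 15671 genes tested were called higher and 44% lower. The median log2 fold change of the members was -1.09, against -0.14 over all genes tested. At week 2 against week 1, 0 members were higher, 8 were lower and Des and Smtn were not called, where 28.2% of genes were higher and 27.4% lower. The members' median there was -2.75, against 0.025 over all genes. All 10 members passed the filter on low values.

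**Figure D2:**
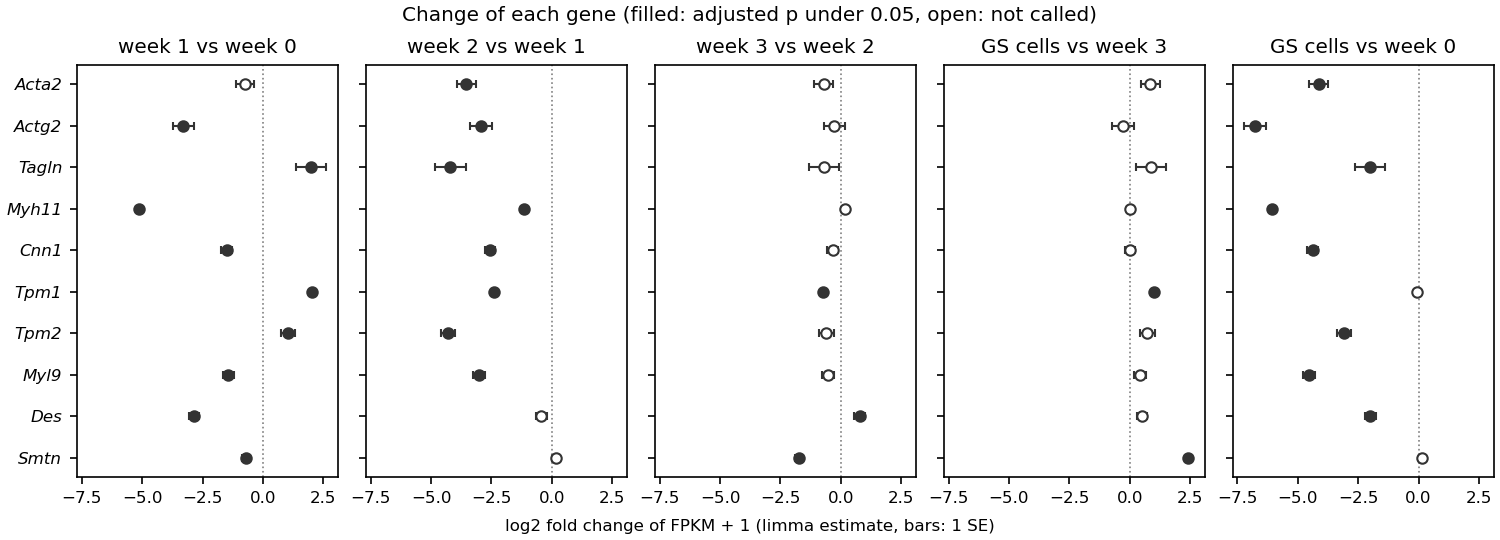
Log2 fold change of each of the 10 members in the 5 comparisons, on the log2(FPKM + 1) scale from limma, with bars of 1 SE and open points where a gene was not called. At week 1 against week 0 the members part, with Tagln, Tpm1 and Tpm2 higher and Myh11 at -5.15, and at week 2 against week 1 the 8 called members are lower.

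At week 3 against week 2 only 3 members were called. Tpm1 (0.589-fold, limma log2 fold change -0.75, SE 0.08, adjusted p = 0.000763) and Smtn (0.262-fold, -1.73, SE 0.15, adjusted p = 0.00031) were lower, and Des (2.168-fold, 0.78, SE 0.22, adjusted p = 0.0402) was higher. The background was 10.6% of genes higher and 10.7% lower. The Des call was lost when any library of week 0, week 2 or GS cells, or week 3 replicate 1, was left out (limma adjusted p = 0.0518 to 0.21), with no filter on low values (0.0957) and with only the 2 groups fitted (0.145). In GS cells against week 3, Tpm1 (2.04-fold, limma log2 fold change 1.01, adjusted p = 0.000281) and Smtn (6.30-fold, 2.42, SE 0.15, adjusted p = 9.25e-05) were higher, and 0 members were lower, where 11.7% of genes were higher and 10.8% lower. The calls of Tpm1 and Smtn in these 2 comparisons were kept without either week 3 library.

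For Acta2, Tagln, Tpm2 and Myl9 the call at week 3 against week 2 depended on which week 3 library was kept, whereas Actg2, Cnn1 and Myh11 were not called without either one (limma adjusted p = 0.117 to 0.944). Week 3 replicate 2 was above replicate 1 by 2.81-fold in Acta2, 7.72-fold in Actg2, 5.80-fold in Tagln, 2.09-fold in Cnn1, 2.29-fold in Tpm2 and 1.67-fold in Myl9, while the ratio was 0.885 in Myh11, 1.08 in Tpm1, 0.674 in Des and 1.11 in Smtn. On the log2(FPKM + 1) scale, 4 of 10 members were more than 2-fold higher in replicate 2, and 0.874% of all genes tested were. Of 17 fibroblast and matrix markers at 1 FPKM or more in a week 3 library, 17 were higher in replicate 2, with a median ratio of 1.66, and of 17 markers of undifferentiated spermatogonia 5 were, with a median ratio of 0.925. Of 10 Leydig cell markers 2 reached 1 FPKM in both week 3 libraries, and of 12 macrophage markers also 2. Cyp11a1, Adgre1 and C1qa reached it in replicate 2 alone, so no count of direction is given for these lists. From replicate 1 and replicate 2, the sum of the 18 fibroblast and matrix markers was 361 and 730 FPKM, that of the 10 Leydig cell markers 35.6 and 44.5, and that of the 12 macrophage markers 74.6 and 116. The Leydig cell markers Hsd3b6 and Lhcgr were listed at 0 in both libraries, and Insl3 and Cyp17a1 in replicate 2. Fdx1 made up most of the Leydig cell sum, at 31.6 and 34.4 FPKM, and Lyz2 most of the macrophage sum, at 61.0 and 94.2. The part of fibroblasts, Leydig cells and macrophages in the result was not tested. Without week 3 replicate 2, 6 members were lower at week 3 than at week 2, where 8.16% of genes were lower in that fit, with Acta2 (-1.39, limma adjusted p = 0.0106), Tagln (-1.91, adjusted p = 0.0034), Tpm2 (-1.11, adjusted p = 0.0081) and Myl9 (-0.87, adjusted p = 0.0425) joining Tpm1 and Smtn. Without replicate 1 the log2 fold changes were -0.032 for Acta2 (limma adjusted p = 0.983), 0.50 for Tagln (adjusted p = 0.212), -0.070 for Tpm2 (adjusted p = 0.862) and -0.18 for Myl9 (adjusted p = 0.68). In GS cells against week 3, leaving out replicate 2 gave 5 higher members, where 8.06% of genes were higher, adding Acta2 (1.54, adjusted p = 0.00798), Tagln (2.101, adjusted p = 0.00278) and Tpm2 (1.26, adjusted p = 0.0056) to Tpm1 and Smtn.

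**Figure D3:**
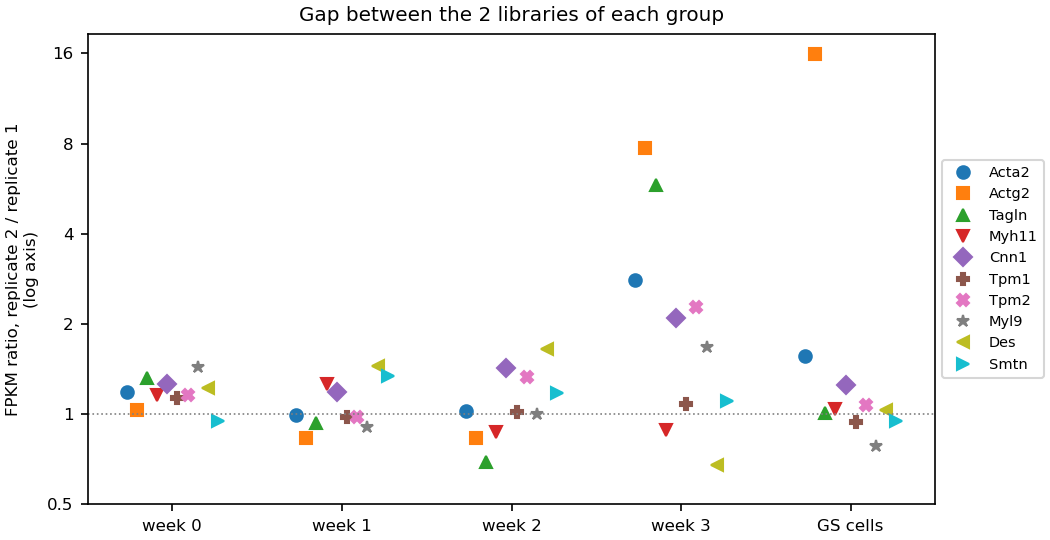
FPKM of replicate 2 over that of replicate 1 in each group, on a log axis, with 1 point for each of the 10 members and a dotted line at equal levels. At week 3 Actg2 (7.72), Tagln (5.80), Acta2 (2.81), Tpm2 (2.29) and Cnn1 (2.09) lie above 2, while in weeks 0, 1 and 2 no member does, and the GS cell point of Actg2 rests on 2 and 30 reads.

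In GS cells against week 0, 8 members were lower and 0 higher, where 45.9% of genes were lower and 34.7% higher. The fall was deepest in Actg2 (limma log2 fold change -6.76, SE 0.45, adjusted p = 1.55e-06), Myh11 (-6.09, SE 0.13, adjusted p = 1.72e-09), Myl9 (-4.55, SE 0.24, adjusted p = 4.09e-07) and Cnn1 (-4.39, SE 0.22, adjusted p = 2.72e-07). Because both stand below 1 FPKM in at least 1 GS cell library, these values move with the pseudocount and other settings, between -8.87 and -6.02 for Actg2 and between -7.84 and -5.37 for Myh11. Acta2 (-4.14), Tpm2 (-3.09), Tagln (-2.01) and Des (-2.001) were lower too, with limma adjusted p-values of 1.35e-05, 1.49e-05, 0.0166 and 4.33e-05. Tagln was no longer called when any library of either group was left out, at adjusted p = 0.0722 and 0.122 without week 0 replicates 1 and 2, and 0.0594 and 0.0587 without GS cells replicates 1 and 2, nor with no filter on low values (limma adjusted p = 0.0564). Tpm1 (log2 fold change -0.07, limma interval -0.26 to 0.11, adjusted p = 0.417) and Smtn (0.16, interval -0.18 to 0.50, adjusted p = 0.331) were not called. The sign of Tpm1 and the calls of both turned under other scalings of the libraries, to 0.48 and 0.61 under quantile normalization.

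The order of group levels, from high to low, was week 0, week 1, then the 3 later groups for Acta2, Actg2, Cnn1 and Myl9. In these 4 genes the later groups were not called apart. Neighbours week 0 and week 1 differed in Actg2, Cnn1 and Myl9 and were not called apart in Acta2. Myh11 had the same order of weeks 0 and 1, and its 3 later groups, which stood between 0.213 and 0.403 FPKM, were not called apart. Week 1 came first in Tagln, Tpm1 and Tpm2 and differed from the next, week 0. In Tpm1 neither week 0 and GS cells nor GS cells and week 2 were called apart (limma adjusted p = 0.417 and 0.0593), while week 3 was lower than week 2. The 3 later groups of Tagln and Tpm2 were not called apart. For Des the order was week 0, GS cells, week 3, week 1, week 2, and of these neighbours only week 0 and GS cells differed, while GS cells were also higher than week 1 (log2 fold change 0.86, limma adjusted p = 0.0106) and week 2 (1.29, adjusted p = 0.00726). For Smtn GS cells and week 0 were not called apart, nor were weeks 2 and 1, and week 3 was lowest (adjusted p = 4.22e-05 against week 1).

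Most members have a relative that most cells use. The share of the members within their family stays the same when all values of a library are multiplied by a common factor. Acta2 and Actg2 made up 32.2% of the summed FPKM of actins (with Actb and Actg1) (week 0), 8.33% (week 1), 0.689% (week 2), 0.576% (week 3) and 0.733% (GS cells). Myh11 made up 58.4%, 1.34%, 0.285%, 0.497% and 0.379% of myosin heavy chains (with Myh9 and Myh10) in the same order of groups. In percentage points the heavy chain had its largest step between weeks 0 and 1, as did the actins, Cnn1, Myl9 and Des. The share of Cnn1 among calponins (with Cnn2 and Cnn3) was 44.0%, 3.57%, 1.20%, 0.801% and 0.738%. The share of Myl9 among regulatory light chains (with Myl12a and Myl12b) was 82.9%, 27.2%, 8.79%, 7.83% and 8.06%. The shares of the tropomyosins and transgelin stayed larger. Tpm1 and Tpm2 made up 58.5%, 51.4%, 21.4%, 18.1% and 20.7% of tropomyosins (with Tpm3 and Tpm4). Tpm1 and Tpm2 averaged 121.9 and 114.0 FPKM at week 0, and 115.6 and 12.44 FPKM in GS cells. The tropomyosin share in GS cells was thus mostly that of Tpm1, which adds muscle and other isoforms. Tagln made up 87.6%, 64.6%, 19.9%, 17.8% and 18.1% of its family with Tagln2, and 6.92% and 28.7% in the 2 week 3 libraries. Des made up 11.4% of the FPKM of Des and Vim (week 0), 0.083% (week 1), 1.02% (week 2), 3.31% (week 3) and 3.05% (GS cells). In the 2 week 3 libraries the Des share was 4.83% and 1.79%. The share of the actins was 0.243% and 0.910% there, and that of Cnn1 0.538% and 1.06%.

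**Figure D4:**
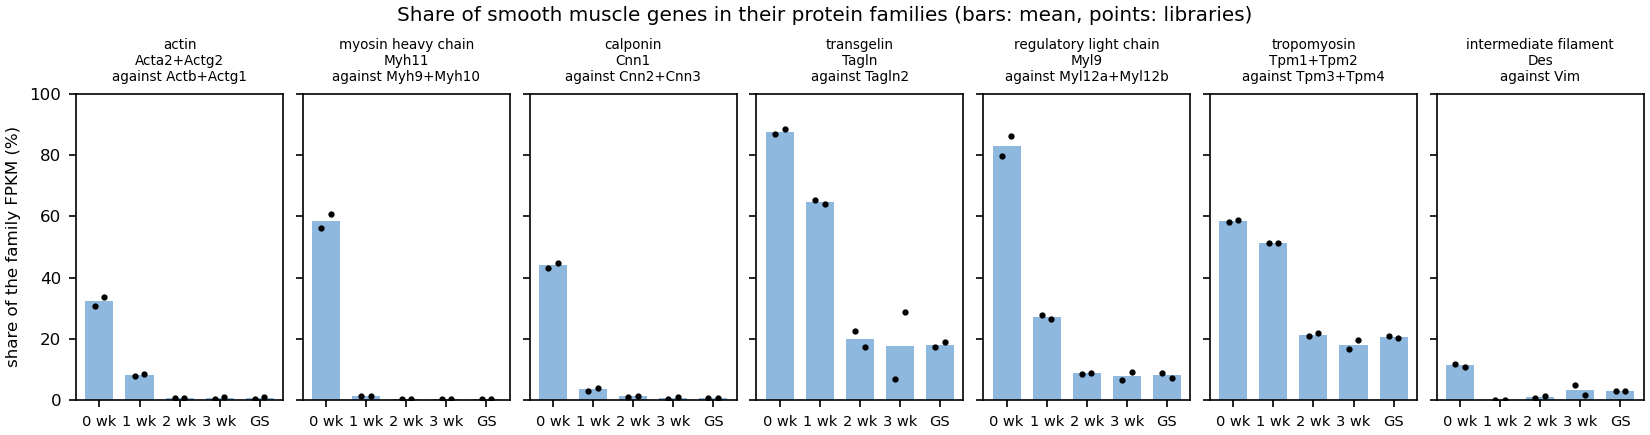
Share of the member genes in the summed FPKM of their protein family, in percent on a linear axis. Bars show group means and dots the 2 libraries, and Tpm1 counts with all its isoforms. At week 1 myosin heavy chain is at 1.34%, against 58.4% at week 0, and tropomyosin at 51.4%, against 58.5%.

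The denominators moved as well. Of the 12 non-muscle counterparts, 11 were higher and 1, Myh10, lower at week 1 than at week 0. The share over all genes was 36.3% higher and 44% lower. The counterparts' median log2 fold change was 1.88. Tagln2 (log2 fold change 3.90, limma adjusted p = 1.9e-09), Vim (4.01, adjusted p = 1.2e-06) and Cnn3 (3.72, adjusted p = 1.48e-07) led. Actg1, a cytoplasmic actin that most cells use, was higher by 0.21 (adjusted p = 0.0459). At week 2 against week 1, 8 counterparts were lower and 0 higher, where 27.4% of all genes were lower and 28.2% higher. The counterparts' median there was -1.08. Myl12a, a regulatory light chain that most cells use, averaged 158.1 FPKM at week 2, against 382.2 FPKM at week 1. Vim, the intermediate filament protein of mesenchymal cells, averaged 158.7 FPKM at week 2, against 3094 FPKM at week 1. In GS cells against week 0, 8 of 12 were higher, 0 were lower and 4 (Myh10, Cnn2, Tpm4 and Vim) were not called. Over all genes 34.7% were higher and 45.9% lower. Beta actin (Actb) averaged 2646 FPKM in GS cells, against 922.2 FPKM at week 0 (log2 fold change 1.52, limma adjusted p = 6.63e-06).

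Of 16 contraction regulators tested (17 listed), 4 were higher and 9 lower at week 1 than at week 0, where 36.3% of all genes were higher and 44% lower. At week 2 against week 1, 0 were higher and 8 lower, where 28.2% of genes were higher and 27.4% lower. Myl6, the essential light chain, was higher at week 1 than at week 0 (log2 fold change 0.96, limma adjusted p = 1.1e-05) and lower at week 2 than at week 1 (-1.95, adjusted p = 1.69e-06). Ednra, the endothelin receptor that drives contraction, was higher at week 1 than at week 0 (0.74, adjusted p = 0.0022) and lower at week 2 than at week 1 (-2.50, adjusted p = 7.03e-06). The guanylate cyclase subunit Gucy1a1, which relaxes smooth muscle on nitric oxide, was lower in both, at -1.59 and -1.01 (limma adjusted p = 3.64e-06 and 0.000204). Ppp1r12c, a regulatory subunit of myosin phosphatase, was lower in both comparisons, at -0.73 and -0.46 (limma adjusted p = 0.000606 and 0.013). Mylk, the light chain kinase, was chosen after its values were seen and stood at 108.2 FPKM (week 0), 14.24 (week 1), 4.57 (week 2), 5.20 (week 3) and 5.56 (GS cells). Phospholamban (Pln), chosen likewise, stood at 27.88 FPKM at week 0 and was listed at 0 in all 8 later libraries.

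Of 18 actin filament partners, 7 were higher and 8 lower at week 1 than at week 0, which is near the 36.3% and 44% over all genes. At week 2 against week 1, 1 was higher and 10 lower, where 28.2% of genes were higher and 27.4% lower. Caldesmon (Cald1), which inhibits actomyosin, was higher at week 1 than at week 0 (log2 fold change 1.94, limma adjusted p = 8.02e-05) and lower at week 2 than at week 1 (-3.56, adjusted p = 1.01e-05). Filamin A (Flna), an actin crosslinker, moved the same way with 0.48 and -1.96 (limma adjusted p = 0.00773 and 9.32e-06). Tgfb1i1, the focal adhesion protein Hic-5, was not called between weeks 1 and 0 (0.22, adjusted p = 0.327) and was lower at week 2 than at week 1 (-3.15, adjusted p = 7.18e-06). Zyxin (Zyx), of focal adhesions and stress fibres, was higher in both, at 0.52 and 0.33 (limma adjusted p = 0.00402 and 0.0473), and is the partner that was higher at week 2.

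Srf took another course than the members. Srf, the factor that binds the CArG box, averaged 71.4 ± 2.09 FPKM (week 0), 35.4 ± 5.04 (week 1), 72.5 ± 0.314 (week 2), 69.4 ± 6.53 (week 3) and 78.8 ± 1.43 (GS cells), with SD over n = 2 libraries each. It was lower at week 1 than at week 0 (log2 fold change -0.9997, limma adjusted p = 3.26e-05) and higher at week 2 than at week 1 (1.02, adjusted p = 0.000101). Myocardin (Myocd), its cofactor in smooth muscle, averaged 0.289 ± 0.074 FPKM at week 1 and 2.198 ± 0.95 at week 0, and was lower at week 1 (-1.28, adjusted p = 0.000153). The myocardin relative Mrtfa was lower at week 1 than at week 0 (-1.06, limma adjusted p = 2.04e-05), and Mrtfb was higher (0.74, adjusted p = 6.71e-05). Klf4, a factor that represses smooth muscle genes, was not called at week 1 against week 0 (0.15, adjusted p = 0.286) and was lower at week 2 than at week 1 (-2.19, adjusted p = 3.98e-06). Elk3, a ternary complex factor that partners SRF, averaged 58.0 FPKM at week 1, against 5.14 FPKM at week 0 (log2 fold change 3.29, limma adjusted p = 3.69e-06). Elk3 was lower at week 2 than at week 1, at 4.16 FPKM (-3.51, adjusted p = 1.4e-05). Elk4, of the same family, averaged 31.7 FPKM at week 1, against 14.0 FPKM at week 0 (limma adjusted p = 0.000114). Elk4 was higher at week 2 than at week 1 (0.74, adjusted p = 0.00296).

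In bulk RNA, fewer cells of a type and less RNA per cell cannot be told apart, and markers of other cells moved as well. All 18 fibroblast and matrix markers were higher at week 1 than at week 0, where 36.3% of all genes were. All 18 were lower at week 2 than at week 1, where 27.4% of all genes were. The medians of the 18 markers were 2.60 and -2.80 on the log2 scale. Their summed FPKM was 1065 and 1216 (week 0), 5858 and 5944 (week 1), 789 and 827 (week 2), 361 and 730 (week 3), and 671 and 638 (GS cells). The summed FPKM of the 10 members over that of the fibroblast markers was 1.40 and 1.52 (week 0), 0.326 and 0.308 (week 1), 0.265 and 0.248 (week 2), 0.266 and 0.232 (week 3), and 0.370 and 0.386 (GS cells). The ratio was above 1 at week 0 and at most 0.386 in every later library. The highest on average were Sparc, Col3a1 and Fn1, a matrix glycoprotein, a fibrillar collagen and fibronectin. They averaged 1317, 1084 and 823.4 FPKM at week 1, against 470.6, 168.6 and 20.3 FPKM at week 0. The lowest limma p-values at week 2 against week 1 were those of Fn1, Fbn1 and Col6a1, with log2 fold changes of -2.62, -2.98 and -3.13. None of the 18 markers was listed at 0 in any library. The part of fibroblasts in the members' levels was not tested. Of 12 mural cell markers, 3 were higher and 8 lower at week 1 than at week 0. Over all genes these shares were 36.3% and 44%. Aoc3, a smooth muscle and pericyte surface protein, averaged 1.70 FPKM at week 1, against 14.4 FPKM at week 0, while Mcam averaged 156.6 FPKM at week 1, against 53.9 FPKM at week 0. Ndufa4l2, a pericyte marker, averaged 1.40 FPKM at week 1, against 46.1 FPKM at week 0. At week 2 against week 1, 1 mural cell marker was higher and 7 lower, where 28.2% of all genes were higher and 27.4% lower. Cspg4, the pericyte proteoglycan NG2, was at -3.23 and the receptor Notch3 at -0.82 on the log2 scale (limma adjusted p = 1.5e-06 and 0.000396).

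**Figure D5:**
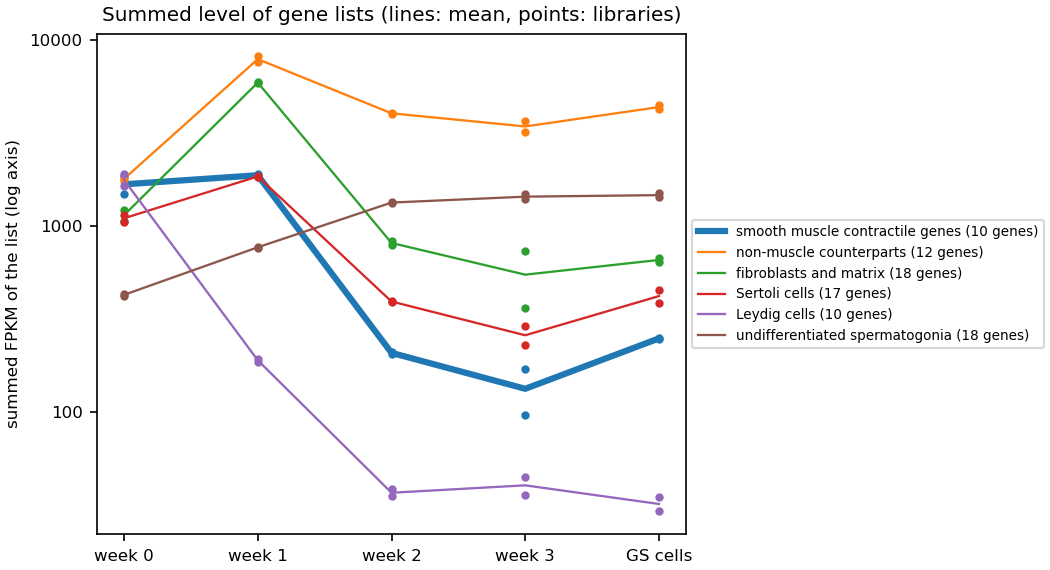
Summed FPKM of the 10 smooth muscle genes, of their non-muscle counterparts and of marker lists of 4 other cell types on a log axis, with points for libraries and lines through group means. The fibroblast and matrix markers peak at week 1 at 5858 and 5944 FPKM, while the members stand at 1490 to 1909 FPKM at weeks 0 and 1 and at 96.0 to 248 FPKM later.

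Likeness to Acta2 and Myh11 was ranked by Pearson's r of log2(FPKM + 1) over the 10 libraries, as a description only, since 10 libraries in 5 groups share their time course. The genes nearest to Acta2 were Ptgis (r = 0.995), Qpct (0.992), Btg1 (0.991) and Mia3 (0.990), followed by Col16a1, Jun, Inhbb and Ptn at 0.987 to 0.988. Those nearest to Myh11 were Eya4, Cep295nl, Spem2, 4930544D05Rik, St6galnac2, Ubqlnl, Cabs1 and Ttc24, at r of 0.9987 to 0.9994. The 8 genes nearest to Myh11 averaged 51.7 to 320 FPKM at week 0 and at most 0.108 FPKM from week 2 on. The spermatid markers fell likewise, from a sum of 30661 and 32530 FPKM at week 0 to 38.1 to 68.5 FPKM from week 2 on. A high r to Myh11 thus does not by itself mark a smooth muscle gene, and the cells behind these 8 genes were not tested. Among the members themselves, Myl9 and Cnn1 ran closest (r = 0.993), and Des and Tpm1 farthest (r = -0.115). The highest r of Des was that with Myh11 (0.904), and the highest of Smtn that with Acta2 (0.447).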

How the data were processed

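RNA was purified with TRIzol and a column and made into stranded libraries from poly(A) RNA (TruSeq Stranded mRNA LT), per the labels' protocols. The authors deposited FPKM values for 21969 genes, 1 column per library. Per the submitters' processing notes, with no roles stated, the tools included Cuffdiff, Cufflinks 2.2.1 and HISAT2 2.1.0, as well as Bowtie2 2.3.4.1, and also cutadapt 1.16 and bcl2fastq 2.17.1.14, with build mm10. The annotation and normalization were not given in the sources used here. Reads were estimated from the steps of the FPKM values. In 2261 genes with 1 transcript of 1500 nucleotides or more (fragment length taken as 200), 96.05% to 99.38% of low values were whole multiples of 1 read within 0.15 of a read. A floor of 3 reads at 1500 nucleotides came to 0.110 to 0.223 FPKM.

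Values were tested as log2(FPKM + 1), a scale that understates changes of low genes, for 15671 genes that reached 1 FPKM in 2 or more libraries. One model held all 5 groups, fitted in limma 3.58.1 (R 4.3.3, eBayes with trend, 5 residual degrees of freedom), two-sided, with Benjamini-Hochberg adjustment within each comparison and a threshold of 0.05. All 10 pairs of groups were compared, 5 of them only for the order of levels, and comparisons share groups. Scripts were tested on simulated data. Genes were placed with GENCODE M21 (GRCm38), where 21951 of 21969 identifiers were found and 27 symbols turned into dates were restored. Sequences come from RefSeq (GRCm38.p6). Of 50-base stretches of transcript, 0.326% of those of Acta2 and 0.34% of those of Myh11 also occur in other genes, and 0 of the other 8 members.

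The members and lists were chosen with earlier results of these data known. From each other list, the 3 genes highest on average and the 3 with the lowest limma p at week 2 against week 1 are named, and any SRF regulator or non-muscle counterpart. One contraction regulator that this rule picks is not reported here. Of 189 listed genes 179 were tested. Alternatives covered pseudocount, filter, scaling, variance model, groups fitted, a replicate block and leaving out each library.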

Additional observations from a re-analysis of the deposited data

How the results depend on the processing

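Of 1000 alternatives for the members' fold changes, 950 kept the direction and the call, 22 lost the call, 14 gained one and 14 turned the sign. Turned signs were Actg2 in GS cells against week 3, at 0.35 without week 3 replicate 2 and 0.29 without GS cells replicate 1, and at week 3 against week 2, at 0.38 without week 3 replicate 1. Leaving out 1 library gave -0.93 to 0.35 and -0.90 to 0.38 for these. Cnn1 in GS cells against week 3 was -0.015 with a common FPKM sum, -0.0035 with a common upper quartile, -0.27 without week 3 replicate 1 and -0.077 without GS cells replicate 2, and -0.27 to 0.28 over all libraries left out. Smtn at week 2 against week 1 was -0.031 without week 1 replicate 1 and up to 0.37 with any other library left out. Over all alternatives Smtn reached 0.459 there. Tagln without week 3 replicate 1 was -0.31 in GS cells against week 3 and 0.50 at week 3 against week 2. Leaving out week 3 replicate 2 instead gave 2.101 and -1.91. Tpm1 in GS cells against week 0 was 0.48 with quantile normalization, 0.41 with a common sum, 0.34 with a common upper quartile and 0.014 without week 0 replicate 2, and -0.16 without week 0 replicate 1. Members higher in GS cells than at week 0 numbered 2 with quantile normalization, 2 with a common sum and 2 with a common upper quartile, against 0. Members higher at week 2 than at week 1 numbered 1 (Smtn) with a common sum. Those higher at week 3 than at week 2 numbered 0 with no filter and 0 with only the 2 groups fitted. The cause was not tested. Leaving out 1 library gave 2 to 5 higher members in GS cells against week 3, 1 to 3 higher and 6 to 7 lower at week 1 against week 0, 0 to 1 higher and 2 to 6 lower at week 3 against week 2, and 7 to 8 lower in GS cells against week 0. It left 8 lower at week 2 against week 1 and 0 higher in either of week 2 against week 1 and GS cells against week 0. Same-numbered libraries did not deviate together (r from -0.0525 to 0.0458 over 10 pairs of groups). That cannot tell whether they came from the same culture. The replicate block gave the same counts, such as 3 higher and 6 lower at week 1 against week 0 and 8 lower in GS cells against week 0. The median log2 fold change over all genes at week 1 against week 0 was -0.14, and 0.38 with quantile normalization, 0.075 with a common sum and 0.25 with a common upper quartile. In GS cells against week 0 it was -0.21, and 0.44, 0.17 and 0.12. The share of calls that were higher at week 1 against week 0 was 45.2%, 59.8% with quantile normalization and 56.2% with a common upper quartile. At week 2 against week 1 it was 50.7%, 61.8% with quantile normalization and 66.2% with a common sum, and in GS cells against week 0 it was 43.0%, 61.1% and 54.1%. Depth limits the values of Actg2 and Myh11 below 1 FPKM.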

Other observations

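Some genes of striated muscle were present at week 0 beside those of smooth muscle. Of 20 listed, 7 were at 1 FPKM or more in both week 0 libraries (Myh6, Myh7, Myl4, Tnnt1, Tnnt2, Tnni3 and Tnnc2), and the other 13 were below it in at least 1 library. Of the 20, 14 were tested, and 3 were higher and 7 lower at week 1 than at week 0. Over all genes 36.3% were higher and 44% lower, and the 7 of 14 is near the latter. Tnni3, cardiac troponin I, averaged 3.26 ± 3.12 FPKM at week 1, against 94.3 ± 8.68 FPKM at week 0 (SD, n = 2 libraries each; limma log2 fold change -4.70, adjusted p = 1.52e-05). Tnnt2, cardiac troponin T, averaged 1.19 ± 0.51 FPKM at week 1, against 51.0 ± 6.63 FPKM at week 0 (-4.59, adjusted p = 1.5e-07), and Myl4, an atrial light chain, at 3.82 ± 0.23 FPKM at week 1, against 43.5 ± 1.02 FPKM at week 0 (-3.21, adjusted p = 2.41e-07). At week 2 Tnni3 was at 13.3 ± 1.65 FPKM and higher than at week 1 (1.96, adjusted p = 0.00601). Acta1, skeletal alpha actin, averaged 1.52 ± 0.16 FPKM at week 1, against 0.18 ± 0.075 FPKM at week 0. Tnnc1 and Myh3, the slow troponin C and embryonic myosin, stood at 2.99 and 0.833 FPKM at week 1, against 0.859 and 0.435 FPKM at week 0.

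Markers of other testis cells were counted in the same way. Over all genes 36.3% were higher and 44% lower at week 1 than at week 0. At week 2 against week 1 these shares were 28.2% and 27.4%. Of 17 Sertoli cell markers, 3 were higher and 13 lower at week 1 than at week 0, and 0 higher and 11 lower at week 2 than at week 1. Ctsl, Clu and Trf were highest on average, and Sox9, Cldn11 and Clu had the lowest limma p-values at week 2 against week 1. Sox9, the Sertoli cell transcription factor, averaged 28.3 FPKM at week 1, against 2.77 FPKM at week 0, and Cldn11 8.80 FPKM at week 1, against 30.04 FPKM at week 0. Of 10 Leydig cell markers, 1 was higher and 8 lower, then 0 higher and 6 lower. Insl3 and Cyp17a1, a hormone and a steroidogenic enzyme, stood highest with Fdx1, and Insl3 averaged 0.587 FPKM at week 1, against 1147 FPKM at week 0. Nr5a1, Cyp11a1 and Fdx1 had the lowest p-values at week 2 against week 1, at -1.97, -3.30 and -1.72 on the log2 scale. Of 15 spermatid markers, 0 were higher and 15 lower, then 1 higher and 8 lower. The protamines Prm2 and Prm1 and the transition protein Tnp2 were highest on average, and Smcp, Prm2 and Prm1 had the lowest p-values at week 2 against week 1. Prm2 averaged 115 FPKM at week 1, against 9622 FPKM at week 0.

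The next counts stand against the same shares of all genes, 36.3% higher and 44% lower, then 28.2% higher and 27.4% lower. Of 9 macrophage markers tested, 1 was higher and 6 lower, then 2 higher and 2 lower. Lyz2, Cd68 and C1qa were highest on average, and Csf1r, Adgre1 and C1qc had the lowest p-values at week 2 against week 1 (-0.64, -1.43 and 0.54 on the log2 scale). Of 12 endothelial markers 1 was higher and 8 lower, then 0 higher and 3 lower, the last near the 27.4% of all genes. Egfl7, Eng and Plvap were highest on average, and the 3 that were lower at week 2 than at week 1 were Eng, Cdh5 and Kdr (-2.29, -1.17 and -0.81). Of 18 markers of undifferentiated spermatogonia, 15 were higher and 1 lower, then 14 higher and 0 lower. Dazl, Ddx4 and Zbtb16 were highest on average, and Ddx4, an RNA helicase of germ cells, was the marker that was lower at week 1 than at week 0 (-1.46). Nanos3, Zbtb16 and Pou5f1 had the lowest p-values at week 2 against week 1, at 1.25, 1.48 and 1.52 on the log2 scale.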
